A study of Sus scrofa with 8 samples.

Results

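The surface proteins that define cultured mesenchymal stem cells were followed at the RNA level in porcine synovial cells. The 6 positive markers THY1, ENG, NT5E, CD44, ALCAM and ITGB1 and 3 markers of blood cell lineages that such cultures are meant to lack (CD34, PTPRC and CD14) were taken by gene symbol from the platform annotation. All 9 genes were on the array, of 13444 named genes in all, with 12 of the 47722 probe sets that were tested: 1 probe set each for 6 genes, and 2 each for CD44, ALCAM and PTPRC. Each probe set combines several short probes into 1 reading of a transcript.

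Mesenchymal stem cells carry no single surface protein of their own. In human cells they are recognised by a combination, with CD90 (THY1), CD105 (ENG) and CD73 (NT5E) present, and with CD45 (PTPRC), CD34 and CD14 absent as a sign that blood cells have been left behind. CD44, CD29 (ITGB1) and CD166 (ALCAM) are commonly added to the positive side, and all of these proteins also occur on ordinary fibroblasts. CD34 is the least strict of the negative markers, because fibroblasts of connective tissue and of the deeper synovium can carry it in the body and tend to lose it on plastic.

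The cells grew out of the stifle joints of male piglets aged 59 days, 3 of German Landrace (DL) and 3 of Angeln Saddleback (AS). FP stands for cells from the infrapatellar fat pad, an adipose synovium, and FS for cells of the fibrous synovium of the joint capsule. The cells of all 4 groups (AS-FP, AS-FS, DL-FP and DL-FS) were undifferentiated, received no treatment, shared 1 serum-containing growth medium and were taken at passage 3, with 2 Porcine Snowball arrays per group. RNA came from cell pools, and nothing in the labels or methods says that the 2 arrays of a group came from different animals or cultures, so p-values measure only the spread between these arrays, which may be technical. The methods list antibodies against CD90, CD105, CD44 and CD29 as positive and against CD45 and CD34 as negative markers in flow cytometry. NT5E, ALCAM and CD14 were not among the stained proteins. The supplier reactivity given there was human for CD45, and human and rat for CD34. The cytometry counts stained cells and was not analysed here, so the values below are RNA levels only.

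All values are on the log2 scale after robust multichip averaging (RMA), where a difference of 1 is a doubling of signal. Array medians ran from 4.58 to 4.64 over the 8 arrays, and the arrays correlated at Pearson's r of 0.982 to 0.990. DL-FP 1 stood apart in its 9 hybridisation controls, with a mean of 9.37 against 10.3 to 10.6 on the other arrays. Member calls that rest on it, with and without the replicate block, were therefore also read without it. For single genes of the other lists this is not given in every case. Background was read from 69 background probe sets, whose medians were 2.66 to 2.81 and whose 95th percentiles were 7.20 to 7.61. The mean level of these probe sets ran from 1.21 to 7.44 with the number of G and C bases in their names, and the base content of the member probe sets is unknown, so a member between the median and the 95th percentile could not be placed above or within background. As a check of the cell type, all 8 measured genes of a fibroblast list lay above the 95th percentile on all 8 arrays, while this held for 0 of 10 endothelial genes, 0 of 9 genes of other leukocytes and 1 of 8 macrophage genes (CD86). Above the background median on all 8 arrays were 10 of 10, 7 of 9 and 7 of 8 of these genes. Absence of those cell types was therefore not shown.

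Against this background the 12 probe sets fell into 3 classes. Above the 95th percentile on all 8 arrays were 5 probe sets, those of THY1, ENG, ITGB1 and both of CD44. The probe sets of CD34, CD14 and NT5E and 1 of ALCAM lay between the median and the 95th percentile on all arrays. The second ALCAM probe set and both PTPRC probe sets lay at or below the background median on all 8 arrays. Of the positive markers, 4 of 6 were thus above the stricter limit on every array, and of the negative markers 0 of 3. The levels of CD34 and CD14 could not be placed above or within background, so this count does not show their absence.

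**Figure D1:**
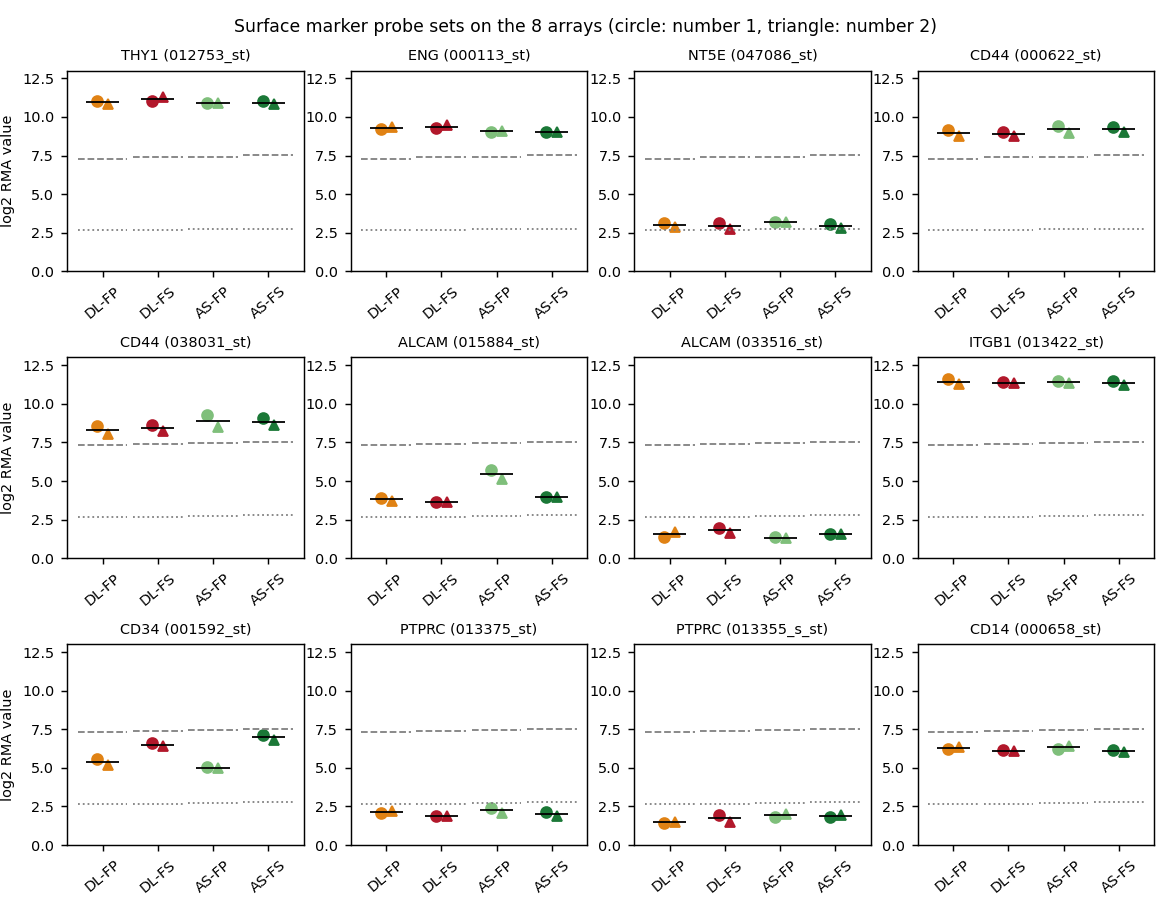
Log2 RMA level (vertical axis) of each of the 12 member probe sets on the 8 arrays, by group (horizontal axis), with a circle for replicate number 1, a triangle for number 2 and a black bar for the group mean. The dotted and dashed lines are the median and the 95th percentile of the background probe sets: THY1, ENG, ITGB1 and both CD44 probe sets lie above the dashed line on all arrays, and the CD34 points of FS lie above those of FP in both breeds.

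Few of the member probe sets changed between the groups. AS minus DL was called (adjusted p of 0.1 or less, limma with Benjamini-Hochberg adjustment over all probe sets) for 1 of 12, ALCAM, where 0.666% of all probe sets were called. FP minus FS was called for 1 of 12, CD34, where 0.264% of all were called. The median difference of the 12 was 0.08 for AS minus DL and 0.00 for FP minus FS, against 0.01 and 0.00 over all probe sets. With the replicate number as a block, calls rose to 4 of 12 for AS minus DL (3.04% of all probe sets), adding ENG and both CD44 probe sets, and to 2 of 12 for FP minus FS (0.987% of all), adding ALCAM. The values of all 4 arrays of one side lay above those of the other for 2 of 12 probe sets between the breeds (ENG and ALCAM, 5.2% of all probe sets) and for 2 of 12 between the tissues (CD34 and CD14, 2.79% of all).

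**Figure D2:**
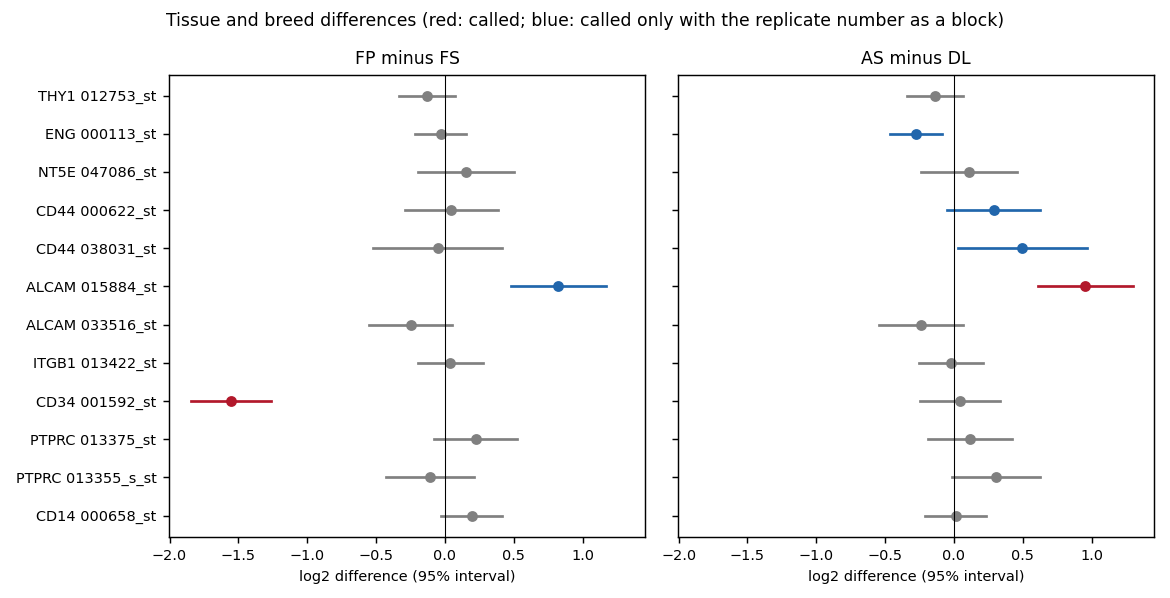
Log2 difference FP minus FS and AS minus DL (horizontal axis) of each member probe set (vertical axis), with 95% intervals from limma over 8 arrays. Red marks a call at an adjusted p of 0.1 or less and blue a call made only with the replicate number as a block: CD34 at -1.56 for tissue and ALCAM at 0.95 for breed are the red points.

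Among the positive markers, THY1 (SNOWBALL_012753_st) encodes the small lipid-anchored protein CD90, a fibroblast surface marker. Its level was 11.02 and 10.86 in DL-FP, 11.05 and 11.26 in DL-FS, 10.90 and 10.89 in AS-FP, and 11.04 and 10.82 in AS-FS. Both DL-FS arrays lay above the other 6, and the other 3 groups overlapped one another. Neither comparison of DL-FS was called (FP minus FS within DL was -0.22, adjusted p = 1, and AS minus DL within FS -0.23, adjusted p = 0.806). AS minus DL was -0.14 (95% interval -0.34 to 0.07, adjusted p = 0.752) and FP minus FS -0.13 (-0.34 to 0.08, adjusted p = 1).

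ITGB1 (SNOWBALL_013422_st) encodes the beta-1 chain shared by many integrins, the receptors that hold a cell to collagen, laminin and fibronectin. It read 11.60 and 11.26 in DL-FP, 11.43 and 11.33 in DL-FS, 11.45 and 11.35 in AS-FP, and 11.50 and 11.24 in AS-FS. All 4 groups covered much the same range. The intervals were -0.26 to 0.21 around -0.02 for AS minus DL and -0.20 to 0.27 around 0.04 for FP minus FS, with neither called.

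ENG (SNOWBALL_000113_st), the co-receptor endoglin of the TGF-beta and BMP receptors, stood at 9.23 and 9.34 in DL-FP, 9.27 and 9.48 in DL-FS, 9.05 and 9.09 in AS-FP, and 9.03 and 9.06 in AS-FS. Every AS array was below every DL array, with means of 9.06 ± 0.03 (SD, n = 4) in AS and 9.33 ± 0.11 (SD, n = 4) in DL. The difference was small, -0.27 (standard error 0.08, 95% interval -0.46 to -0.09), and was not called (adjusted p = 0.329). With the replicate block it was called (adjusted p = 0.0745), but not when any one of 7 arrays, all but DL-FS 1, was left out of that fit (adjusted p = 0.203 without DL-FP 1), and the same-numbered arrays differed by -0.18 and -0.25 in FP and by -0.25 and -0.43 in FS. Between the tissues ENG differed by -0.03 (95% interval -0.22 to 0.16).

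CD44, the receptor for hyaluronan, the main polysaccharide of synovial fluid, was read by 2 probe sets. SNOWBALL_000622_st gave 9.14 and 8.76 in DL-FP, 9.02 and 8.74 in DL-FS, 9.45 and 8.99 in AS-FP, and 9.36 and 9.02 in AS-FS. SNOWBALL_038031_st gave 8.57 and 8.03 in DL-FP, 8.66 and 8.24 in DL-FS, 9.26 and 8.52 in AS-FP, and 9.08 and 8.62 in AS-FS. In both, the array numbered 1 was the higher of its group in all 4 groups, by 0.29 to 0.46 and by 0.42 to 0.74, and the breeds overlapped because of this spread. A higher array 1 in all 4 groups was seen in 5 of 12 member probe sets, those of ITGB1, NT5E and CD34 besides these, and in 12.6% of all probe sets. AS minus DL was 0.29 (standard error 0.15, 95% interval -0.05 to 0.63, adjusted p = 0.654) for the first and 0.50 (standard error 0.20, 0.03 to 0.96, adjusted p = 0.536) for the second. With same-numbered arrays set against each other, AS was higher in 4 of 4 pairs, by 0.23 to 0.34 in the first probe set and by 0.38 to 0.69 in the second, and the block fit called both (adjusted p = 0.0617 and 0.0188). Leaving out arrays of the block fit ended the call of the first in 7 of 8 cases, all but DL-FS 2 (adjusted p = 0.182 without DL-FP 1), and that of the second in 1 case, DL-FP 2 (0.109, against 0.0909 without DL-FP 1). The second was also called within FP in that fit (0.59, adjusted p = 0.0696, against 0.890 without the block), and that call was lost without any array except those of DL-FS (0.329 without DL-FP 1). Neither probe set separated FP from FS, with differences of 0.05 and -0.05.

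ALCAM, an adhesion molecule of the immunoglobulin superfamily that binds itself and CD6, had the largest breed difference of the 12 probe sets. In SNOWBALL_015884_st the level was 5.69 and 5.16 in AS-FP, 3.95 on both AS-FS arrays, 3.92 and 3.72 in DL-FP, and 3.65 and 3.64 in DL-FS. The AS-FS readings were identical and the DL-FS readings nearly so, and the groups shared their estimate of the spread in the fit. The 2 AS-FP arrays stood well above the other 6, which lay within about 0.3 of each other. In the order of group means, 5.43 ± 0.38 in AS-FP (SD, n = 2), 3.95 ± 0 in AS-FS, 3.82 ± 0.14 in DL-FP and 3.65 ± 0.01 in DL-FS, the step from AS-FP to AS-FS was called with the block (adjusted p = 0.0348) or among probe sets with an SD above 0.25 (0.0951). The step from DL-FP to DL-FS was not called in either, and the step between them was not tested.

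The breed difference of ALCAM was 0.95 (1.94-fold, standard error 0.15, 95% interval 0.61 to 1.30, adjusted p = 0.0519), and it lay mostly in FP, where AS minus DL was 1.60 (3.04-fold, standard error 0.21, 95% interval 1.12 to 2.09, adjusted p = 0.0481). ALCAM was the 1 member called within FP, where 0.212% of all probe sets were called, and with the block CD44 joined it (2 of 12, against 0.826% of all). Within FS the difference was 0.31 (-0.18 to 0.79, adjusted p = 0.863). FP minus FS within AS was 1.47 (2.77-fold), with an adjusted p of 0.120 over all probe sets without the block. Within DL it was 0.18 (adjusted p = 1). The difference between these tissue effects was 1.30 (standard error 0.30, 95% interval 0.61 to 1.99), with an unadjusted p = 0.00235 and an adjusted p of 1 in limma over all probe sets, so the greater effect in AS was not called. Across both breeds FP minus FS was 0.82, called with the block (adjusted p = 0.0546) and not without it (0.134). Without DL-FP 1 the block fit called neither (0.103 within AS and 0.239 across both breeds).

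These calls were sensitive to single arrays. Without any one of 7 arrays, all but AS-FP 2, the AS minus DL call of ALCAM was lost (adjusted p of 0.0574 to 0.227 over the 8 fits that each left out 1 array, differences of 0.82 to 1.09), and without any of the 8 the call within FP was lost (0.101 to 0.371, differences of 1.33 to 1.87). Without DL-FP 1 the adjusted p was 0.145 for the breed difference and 0.261 for that within FP (1.70). With the block, the breed call was lost without DL-FP 2 alone (adjusted p = 0.119, against 0.0945 without DL-FP 1), and the call within FP without DL-FP 1, DL-FP 2 or AS-FP 1 (0.188 without DL-FP 1, and up to 0.233). The second probe set of the gene, SNOWBALL_033516_st, lay below the background median on all arrays at 1.28 to 1.97, so it gave no second reading of this pattern, and its AS minus DL was -0.24 (adjusted p = 0.695). Genes of the adipocyte list were read beside ALCAM and did not all move with it. With the brightest probe set of each gene, AS minus DL was positive for LPL (0.92), ADIPOQ (0.58) and PLIN1 (0.33). It was negative for FABP4 (-0.48), CIDEC (-0.24) and PPARG (-0.12), with none of these 6 probe sets called. Other ADIPOQ probe sets were called higher in AS in limma, SNOWBALL_023218_s_st (1.93, adjusted p = 0.00201) and SNOWBALL_022562_s_st (2.17, adjusted p = 0.0165). The rest of the gene was not called, SNOWBALL_020905_s_st (0.84), SNOWBALL_022557_s_st (0.73) and SNOWBALL_022521_s_st (-0.11). The list had 0 of 6 genes above the 95th percentile of background on all 8 arrays. Of its 24 probe sets from 6 genes, 3 were higher in AS and 3 higher in FP, with 2 to 3 and 0 to 4 when single arrays were left out. With the block, 5 were higher and 1 lower in AS, and 8 were higher in FP. Within FP, 2 were higher in AS (0 to 2 without single arrays, 5 with the block). One of these was ADIPOQ SNOWBALL_023218_s_st, at 6.51 and 6.23 in AS-FP against 4.35 and 4.12 in DL-FP (2.14, adjusted p = 0.0146, lost without any of these 4 arrays at up to 0.207). The summed level of the list was 8.75 to 8.76 in AS-FP, 8.49 to 8.79 in DL-FP, 7.98 to 8.31 in AS-FS and 7.95 to 7.98 in DL-FS. DL-FP thus overlapped AS-FP in the sum while ADIPOQ was higher in AS-FP, as ALCAM was, and the part of these genes in the ALCAM result was not tested.

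NT5E, the enzyme CD73 that makes adenosine outside the cell, could not be assessed as a positive marker on this array. Its 1 probe set, SNOWBALL_047086_st, gave 3.12 and 2.84 in DL-FP, 3.12 and 2.74 in DL-FS, 3.22 and 3.17 in AS-FP, and 3.09 and 2.78 in AS-FS, just above the background medians. AS minus DL was 0.11 (95% interval -0.24 to 0.46) and FP minus FS 0.15 (-0.20 to 0.50), neither called. At this level the array gave no reading of whether the transcript was present.

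**Figure D3:**
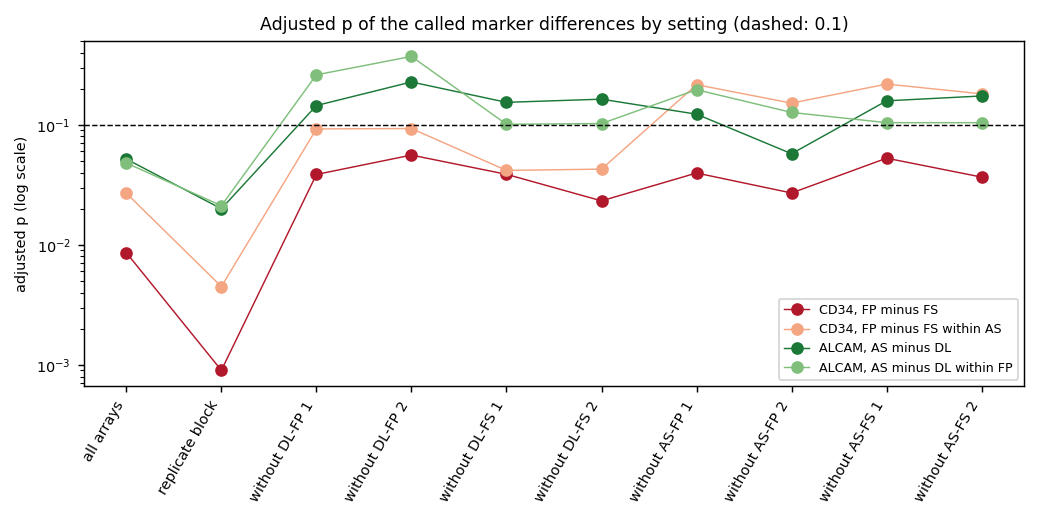
Adjusted p (vertical, log axis) of the CD34 and ALCAM differences with all arrays, with the replicate number as a block, and without each array in turn (horizontal axis), with the threshold of 0.1 as a line. CD34 FP minus FS stays on the called side in all settings drawn, between 0.000901 and 0.0559, while ALCAM crosses the line without most single arrays.

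Of the negative markers, CD34 varied more between the groups than any of the other 11 probe sets. CD34 is a sialomucin of blood stem cells, vessel lining and connective tissue fibroblasts. Its probe set, SNOWBALL_001592_st, read 7.16 and 6.81 in AS-FS, 6.58 and 6.44 in DL-FS, 5.56 and 5.21 in DL-FP, and 5.03 and 4.97 in AS-FP. Every FS array lay above every FP array. The group means fell in the order AS-FS, DL-FS, DL-FP and AS-FP, and the arrays of neighbouring groups did not overlap, although neither breed difference was called (AS minus DL was 0.47 in FS, adjusted p = 0.674, and -0.38 in FP, adjusted p = 0.880). Differences of opposite sign without overlap in FP and FS were seen in 3.93% of all probe sets.

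CD34 was lower in FP by 1.56 on the log2 scale (2.94-fold, standard error 0.13, 95% interval -1.85 to -1.26, adjusted p = 0.0086), which ranked 14 of all probe sets by size. In bulk RNA, fewer cells with the transcript and less transcript per cell cannot be told apart. The call was kept without each of the 8 arrays (adjusted p of 0.0232 to 0.0559), and without DL-FP 1 the difference was -1.64 (adjusted p = 0.0386). Within AS it was -1.98 (3.95-fold, standard error 0.18, 95% interval -2.39 to -1.57, adjusted p = 0.0269), the 1 member called there, where 0.0545% of all probe sets were called (2 of 12 and 0.495% with the block, which added ALCAM). That call was lost without any of the 4 AS arrays (adjusted p of 0.0417 to 0.218 over the 8 fits that each left out 1 array). Within DL it was -1.13 (2.19-fold, standard error 0.18, 95% interval -1.54 to -0.72), called with the block (adjusted p = 0.0307, with 1 of 12 members and 0.434% of all probe sets called) and not without it (0.206, with 0 of 12 members and 0.044% of all called). The block call within DL was lost without any of the 4 DL arrays (0.261 without DL-FP 1), whereas the block calls across both breeds and within AS held without each of the 8. Same-numbered arrays differed by -1.02 and -1.24 in DL and by -2.13 and -1.83 in AS. The difference between the tissue effects of the breeds, -0.85 (standard error 0.25, 95% interval -1.43 to -0.27), had an unadjusted p of 0.0094 and an adjusted p of 1 in limma over all probe sets. Over the breeds as a whole, AS minus DL of CD34 was 0.05 (95% interval -0.25 to 0.34).

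Marker lists of several cell types, only some of which carry CD34, were read beside it. Of 24 probe sets from 10 endothelial genes, 0 were called between FP and FS with or without the block, and their summed level was 8.81 to 8.94 in FP and 8.83 to 9.02 in FS. Of 20 probe sets from 9 genes of other leukocytes, 0 were called either way. Their summed level was 8.33 to 8.49 in FP and 8.41 to 8.64 in FS. In the macrophage list 1 of 22 probe sets from 8 genes was lower in FP, CD86 SNOWBALL_000268_st (-0.70, adjusted p = 0.0289, with 0 to 1 calls in the list when single arrays were left out), and 3 were lower in FP with the block. The sum of this list was 9.03 to 9.08 in AS-FP, 9.34 to 9.55 in DL-FP, 9.45 to 9.66 in AS-FS and 9.51 to 9.82 in DL-FS, lowest where CD34 was lowest. CD86 was by far its brightest gene (SNOWBALL_000272_s_st, mean 8.72, FP minus FS of -0.64). With 1 probe set per gene, every other gene of the list read slightly higher in FP, by 0.03 to 0.14, and none of these was called. Of 12 probe sets from 5 blood progenitor genes 0 were called between the tissues. Of 17 probe sets from 7 pericyte and smooth muscle genes 2 were higher in FP (4 with the block, 0 to 3 without single arrays), among them KCNJ8 (1.17, adjusted p = 0.0759). In the fibroblast list 1 of 17 probe sets from 8 genes was lower in FP, S100A4 (-0.74, adjusted p = 0.0573). That count was 1 with the block and 0 to 1 without single arrays. For fibroblasts of the sublining and adventitia, which carry CD34 in the body, 0 of 11 probe sets from 6 genes were called without the block and 2 with it. These were PI16 (-1.42, adjusted p = 0.00178 with the block, 0.178 without) and the microfibril gene MFAP5 (-0.47, adjusted p = 0.0106 with the block, 0.929 without). The summed level of this list was 10.7 to 11.2 in DL-FP, 10.7 to 11.3 in AS-FP, 11.5 to 11.9 in DL-FS and 11.2 to 11.7 in AS-FS, where most FS arrays were above the FP arrays. That sum rested mainly on the same MFAP5 (mean 10.46) and PI16 (9.19). For the rest of the list FP minus FS was 0.05 (DPP4), -0.03 (DPT), -0.02 (CLEC3B) and -0.20 (PLA2G2A), none called with or without the block. The part of any of these lists in the CD34 result was not tested.

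PTPRC, the leukocyte phosphatase CD45, was at or below the background medians in both probe sets. SNOWBALL_013375_st lay between 1.91 and 2.42 and SNOWBALL_013355_s_st between 1.44 and 2.04 on the 8 arrays. FP minus FS was 0.22 (95% interval -0.08 to 0.53) in the first, and AS minus DL was 0.30 (adjusted p = 0.600) in the second. At this level a group difference could not be read, and the probe sets did not vary together (Pearson's r of -0.105 over 8 arrays).

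CD14 (SNOWBALL_000658_st), the monocyte co-receptor for bacterial lipopolysaccharide, which fibroblasts can also express, read 6.21 and 6.32 in DL-FP, 6.15 and 6.09 in DL-FS, 6.25 and 6.41 in AS-FP, and 6.14 and 6.03 in AS-FS. Every FP array was above every FS array, at 6.30 ± 0.09 against 6.10 ± 0.06 (SD, n = 4 each). The difference was small, 0.19 (standard error 0.10, 95% interval -0.03 to 0.41), and not called (adjusted p = 1). AS minus DL was 0.01 (-0.21 to 0.23). CD34 and CD14 thus lay in opposite order between the tissues.

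Between single groups, with 2 arrays each, readings that do not overlap are common. They were seen for 6 of 12 member probe sets between FP and FS within DL (30.7% of all probe sets), 5 of 12 within AS (30.6%), 6 of 12 between the breeds within FP (33.3%) and 6 of 12 within FS (35%). Within FS, no member was called between the breeds with or without the block, where 0.0943% of all probe sets were called, and 1.07% with the block. An unadjusted p under 0.05 in limma was seen there for 2 of 12 member probe sets and for 3285 of all 47722. The difference of tissue effects between the breeds was called for 0 members and for 0 of all probe sets in both fits (2 members and 1709 probe sets had an unadjusted p under 0.05).

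The named genes whose levels ran most like those of a member were listed for the 3 genes with at least 1 probe set of SD above 0.25 over all arrays. The 8 points share arrays and groups, so the correlations are descriptions. They were the highest among 7114 or 7115 probe sets searched, with each gene read by its most alike probe set. For CD34 these were ELN, which encodes elastin (r = 0.974), S100A4, a calcium-binding protein of fibroblasts (r = 0.969), and DTNB, a dystrobrevin (r = 0.965). For ALCAM they were ADIPOQ, the fat cell hormone adiponectin (r = 0.976), RGS16, a regulator of G protein signals (r = 0.974), and LIN7A, a scaffold protein of cell junctions (r = 0.971). The ADIPOQ probe set here was SNOWBALL_022557_s_st, which was neither the brightest of the gene nor among its called ones. For CD44 they were RBMX, an RNA-binding protein (r = 0.983), ATM, a DNA damage kinase (r = 0.980), and MCM5, a part of the replicative helicase (r = 0.971). The CD34 curves separated FS from FP, the ALCAM curves stood out in AS-FP, and the CD44 curves rose and fell with the replicate number within each group. The CD44 probe sets ran together (r = 0.966) and the ALCAM probe sets did not (r = -0.696).

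**Figure D4:**
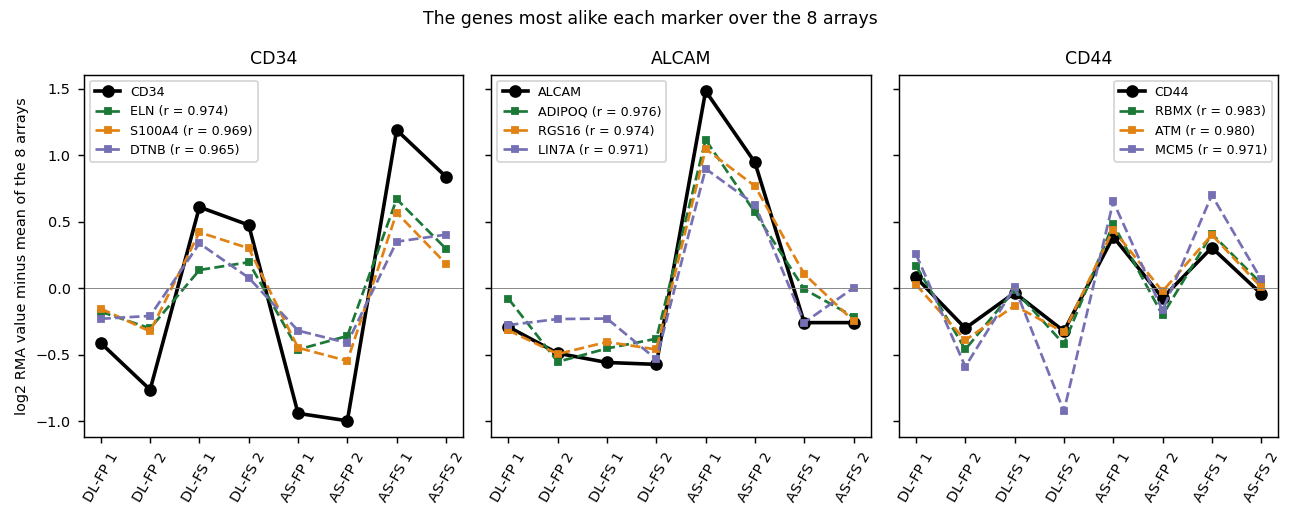
Log2 RMA value minus the mean over the 8 arrays (vertical axis) on each array (horizontal axis) for CD34, ALCAM and CD44 and, for each, the 3 named genes with the highest Pearson's r to it over 8 arrays. CD34 and its neighbours are high on the 4 FS arrays, ALCAM and its neighbours on the 2 AS-FP arrays, and CD44 and its neighbours are higher on the array numbered 1 than on the array numbered 2 of each group.

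The molecules that work with these proteins were mostly not called either. The integrin alpha chains pair with ITGB1 and decide what it binds. Of 33 probe sets from 12 alpha chain genes, 0 were called between the breeds (4 with the block) and 1 between the tissues (2 with the block), ITGA3 (SNOWBALL_014447_s_st), whose product binds laminin. It read 7.16 and 6.88 in DL-FP, 5.76 and 5.75 in DL-FS, 6.08 and 6.36 in AS-FP, and 6.11 and 6.05 in AS-FS. DL-FP was above the other 3 groups. FP minus FS was 0.70 (standard error 0.11, adjusted p = 0.0861), with 1.27 within DL (standard error 0.16, adjusted p = 0.0781) and 0.14 within AS (adjusted p = 1). Its 3 other probe sets gave FP minus FS of 0.17, 0.56 and 0.53, none called. Both calls were lost without any single array (adjusted p of 0.139 to 0.290 and of 0.128 to 0.499), DL-FP 1 among them, and the interaction was not called (-1.13, adjusted p = 1).

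Around NT5E, the enzymes and receptors of extracellular adenosine held 1 call between the breeds in 23 probe sets from 10 genes (3 with the block) and 0 between the tissues in both fits. ADORA2B (SNOWBALL_031070_st), a low-affinity adenosine receptor, read 8.23 and 8.14 in DL-FP, 8.17 and 8.06 in DL-FS, 7.71 and 7.36 in AS-FP, and 7.70 and 7.61 in AS-FS. All AS arrays were below all DL arrays. AS minus DL was -0.56 (standard error 0.10, adjusted p = 0.0845), and the call was lost without any one of 7 arrays, all but AS-FP 1 (adjusted p of 0.0960 to 0.263 over the 8 fits).

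In the other lists 0 probe sets were called for breed or tissue without the block. These were 52 probe sets from 22 genes of other stromal surface proteins, 47 from 21 genes of the endoglin receptor complex and its readouts, 20 from 10 genes of hyaluronan synthesis and CD44 linkers, 26 from 8 genes of CD14 partners and 17 from 6 genes of sialomucins and adhesion partners related to CD34. With the block, between 0 and 3 probe sets of a list were called in each direction, with 3 higher in FP among the stromal surface proteins and 3 lower in FP around endoglin as the highest counts. Over the 7 lists of related genes the median difference lay between -0.14 and 0.06 for AS minus DL, and between -0.05 and 0.11 for FP minus FS, with 1 probe set per gene.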

How the data were processed

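RNA of cell pools was measured on 8 Porcine Snowball arrays, 2 per labelled group. The authors scanned them with GCOS (1.1.1 in the submitters' processing notes) and deposited log2 values, which Expression Console had made by robust multichip averaging. No filter had been applied to them, whereas the methods add a filter on detection and on an SD above 0.25. No value column was left unassigned. Signal over background stands in for depth, and having only 8 arrays limits the precision.

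Of 47845 probe sets, 123 controls were left out. Symbols came from the platform annotation (1 symbol for 25951 probe sets, several for 0, none used for 21771, with 475 microRNA symbols not used and 413 updated through synonyms), giving 13444 named genes. limma 3.58.1 in R 4.3.3 fitted 4 group means (residual degrees of freedom 4, prior 4.33 with a mean trend), and p-values were adjusted by Benjamini-Hochberg within each of 7 comparisons, at the methods' threshold of 0.1. The fit was tested on simulated data. Python 3.11.15 with pandas 2.3.3, numpy 2.4.6 and matplotlib 3.10.9 did the rest.

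The replicate numbers paired the arrays: deviations of same-numbered arrays from their group means correlated in 6 of 6 pairs of groups (r of 0.143 to 0.219). What it denotes is not given in the sources used here. The fit with it as a block (3 degrees of freedom) is given where it changes a call of a member or a count in a list. Other alternatives were a model without the trend, a plain linear model, filters on SD and on background, quantile normalization, a median shift and leaving out each array, the last also with the block.

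Every member probe set is reported. Beyond the members, genes of a related list were named if called without the block. The 3 most alike by Pearson's r were named too (probe sets with SD above 0.25). Only some genes of the marker lists were named, beside a called member. Among marker genes called in limma without the block, KIT (AS minus DL of -1.48, adjusted p = 0.00683) and LUM (-1.01, adjusted p = 0.0119) were not taken up in the results. A list's summed level adds the linear signals of 1 probe set per gene. The members and lists were chosen with earlier results of these data known. No sequence or chromosome position was used here.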

Additional observations from a re-analysis of the deposited data

Results flagged for a closer look

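In PTPRC SNOWBALL_013375_st, AS-FS 1 was far above the other 3 FS arrays, at 2.14 against 1.91 on each of them. In PTPRC SNOWBALL_013355_s_st, DL-FS 1 was far above the other 3 DL arrays, at 1.97 against 1.44 to 1.52. Both probe sets lay at or below the background medians. These were 2 of 48 sets of 4 arrays examined, and chance alone marks about 5% of such sets.

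CD34 differed between the breeds in opposite directions in the tissues, with AS minus DL of -0.38 in FP and 0.47 in FS and no overlap of the arrays in either. This pattern of signs without overlap was seen in 3.93% of all probe sets. The test of the difference itself gave -0.85 with an unadjusted p of 0.0094 and an adjusted p of 1 over all probe sets in limma (0.476 with the replicate block).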

How the results depend on the processing

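No called difference changed direction in any alternative, and among uncalled member values 124 changed sign, none of them above 0.28 in size. Quantile normalization, a median shift and a model without the trend changed no count of called members, although ITGA3 lost its calls with the median shift and, like ADORA2B, without the trend. With the replicate block, called members numbered 4 for AS minus DL, 2 for FP minus FS, 1 within DL, 2 within AS and 2 for AS minus DL within FP, against 1, 1, 0, 1 and 1. With the block and an SD above 0.25 together they numbered 2, 2, 1, 2 and 2 of 4 member probe sets. Of all 15281 probe sets in that fit, 981, 416, 193, 239 and 374 were called. The plain linear model called 0 members in each of these comparisons. Requiring signal above background on 2 arrays also left 0, because CD34 and ALCAM were then not tested (5 member probe sets of 8037 remained). An SD above 0.25 kept 4 member probe sets and gave 2 calls for FP minus FS within AS, where 69 of 15281 probe sets were called. Leaving out each array gave 0 to 1 calls for AS minus DL, 1 for FP minus FS, 0 to 1 within AS and 0 for AS minus DL within FP. With the block, leaving out each array, an alternative chosen after seeing the data, gave 0 to 3, 1 to 2, 0 to 1, 1 to 2 and 0 to 2 calls in the 5 comparisons above. With the background median as the limit, 9 member probe sets lay above background on all arrays, against 5. Over all probe sets, 318 were called for AS minus DL and 126 for FP minus FS, against 1451 and 471 with the block, 195 and 62 without the trend, 0 and 1 in the plain model, and 87 to 168 and 31 to 83 without single arrays.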
